A study of Mus musculus with 19 samples.

Results

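AP-1 is a family of transcription factors that bind DNA as dimers, and its 8 best known genes in the mouse were followed here by name: Fos, Fosb, Fosl1, Fosl2, Jun, Junb, Jund and Atf3. They are 8 of the 24689 gene symbols measured, and they were picked as a family when earlier results of these data were already known. The transcripts were measured by bulk RNAseq of polyadenylated RNA from the tongue epithelium of 19 mice, 15 days after transgenes were switched on. The study compared the human papillomavirus oncogenes E6-E7 and an active form of the Hippo pathway effector YAP, alone and together, in epithelial progenitors. Group E (n = 5) carried Krt14-CreERT, LSL-rtTA and tetON_E6-E7, group Y (n = 3) carried Krt14-CreERT, LSL-rtTA and tetON_YAP1S127A, and group EY (n = 6) carried all of these alleles. Of the control group N (n = 5), 3 mice carried Krt14-CreERT with LSL-rtTA and no effector, N4 carried LSL-rtTA without Cre, and N5 carried Krt14-CreERT and both effectors without rtTA. Mice are named by group and number, so that N4 is mouse 4 of group N. By the methods of the study, the lines also carried the reporter tetON_H2B-GFP, and littermates aged 8 to 16 weeks received 3 tamoxifen injections into the tongue and doxycycline chow. The Krt14 promoter confines Cre to basal keratinocytes and cells that descend from them, while the RNA came from the whole epithelium, peeled after 30 minutes at 37 °C in collagenase and dispase. From 8269674 to 11007304 reads per mouse lay behind the values, and the member with the fewest, Fosl1, had 162 reads in its lowest mouse.

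Fos proteins cannot pair with each other and bind DNA only with a Jun partner, whereas Jun proteins can also pair among themselves, and Atf3 pairs with Jun proteins or with itself. Fos, Fosb, Jun, Junb and Atf3 are immediate early genes, which are switched on within minutes by growth factors, stress or wounding through MAP kinases and serum response factor, while Jund is transcribed more steadily. In stratified epithelia AP-1 acts on proliferation and wound repair in the basal layer and on the genes of the cornified envelope in the upper layers, and it meets YAP and TEAD factors at many enhancers.

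Fos, Fosb and Atf3 were the members lowest in EY epithelia relative to the other groups, and they varied together from mouse to mouse, so their promoters are shown. Of the 8 members, 7 were matched in the RefSeq promoter table of GRCm38.p6, which spans 250 bases before to 50 bases after each start, and Fosl1 was missing. The Fos window is chr12:85473640-85473939 on the plus strand, the Fosb window is chr7:19309996-19310295 on the minus strand and the Atf3 window is chr1:191183284-191183583 on the minus strand. Each is written along its gene, and capitals mark TGACG or its reverse complement CGTCA, the core of the cyclic AMP response element (CRE) that ATF, CREB and some AP-1 dimers bind.
Fos: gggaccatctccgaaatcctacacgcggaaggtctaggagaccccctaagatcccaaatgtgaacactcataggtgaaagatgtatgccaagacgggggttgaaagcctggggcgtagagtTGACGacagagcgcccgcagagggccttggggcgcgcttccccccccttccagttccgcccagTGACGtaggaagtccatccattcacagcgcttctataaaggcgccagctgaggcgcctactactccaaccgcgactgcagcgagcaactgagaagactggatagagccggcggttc
Fosb: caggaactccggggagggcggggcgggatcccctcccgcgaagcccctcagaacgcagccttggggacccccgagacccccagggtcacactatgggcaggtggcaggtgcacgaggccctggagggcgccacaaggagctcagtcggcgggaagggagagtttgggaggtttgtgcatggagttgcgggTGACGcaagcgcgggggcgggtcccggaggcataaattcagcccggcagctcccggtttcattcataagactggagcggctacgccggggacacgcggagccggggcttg
Atf3: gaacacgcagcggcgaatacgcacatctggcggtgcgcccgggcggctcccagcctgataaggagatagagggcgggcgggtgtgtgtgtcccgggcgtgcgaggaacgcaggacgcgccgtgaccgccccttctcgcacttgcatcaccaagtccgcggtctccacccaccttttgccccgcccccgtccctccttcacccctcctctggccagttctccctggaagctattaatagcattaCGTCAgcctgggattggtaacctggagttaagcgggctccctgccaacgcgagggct

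The core began 129 and 66 bases before the start of Fos, 60 bases before that of Fosb and 7 bases before that of Atf3. Junb was the other member with a match, 106 bases before its start. These 4 of 7 members compare with 20.8% of the 32851 promoters in the table, both strands searched. The complete CRE, TGACGTCA, which contains the core, was in 0 of 7 members and 1.79% of promoters, and TGACNTCA, which contains the complete CRE, was in Jun at 45 bases before the start and in 8.83% of promoters. The AP-1 site TGANTCA (7.81% of promoters), the TEAD site GGAATG (14.7%) and the CArG box of serum response factor (1.63%) were found in 0 of 7 members in this window. A match describes the letters only, and nothing was read from it about binding.

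Levels are given in transcripts per 1000000 (TPM), which are scaled by gene length, so that members can be ranked. By group mean, the order in N epithelia was Fos, Jund, Fosb, Jun, Junb, Fosl2, Atf3 and Fosl1, from 1084 ± 370.4 TPM (SD, n = 5) for Fos to 22.9 ± 12.4 TPM for Fosl1. Neighbours in this order overlapped between mice, except that every Junb value (272 to 488 TPM) lay above every Fosl2 value (47.6 to 66.6 TPM). In EY epithelia Jund came first at 712 ± 107 TPM (n = 6), followed by Jun at 453 ± 95.0, Junb at 428 ± 41.5, Fos at 303 ± 122, Fosb at 153 ± 66.1, Fosl2 at 57.7 ± 10.5, Fosl1 at 27.6 ± 10.5 and Atf3 at 17.3 ± 5.18 TPM. Fos thus stood first in N and behind all 3 Jun genes in EY, although its EY values still overlapped those of Jun and Junb. In EY, Jund lay above Jun, Fosb above Fosl2 and Fosl2 above Fosl1 in every value, and the other neighbours overlapped. Jund also came first in E (1085 ± 190.3 TPM, n = 5) and in Y (913 ± 190.3 TPM, n = 3), where Fos was second with overlapping values. The tissue had spent 30 minutes at 37 °C in collagenase and dispase. The part of that handling in these levels, and in their differences between groups, was not tested.

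**Figure D1:**
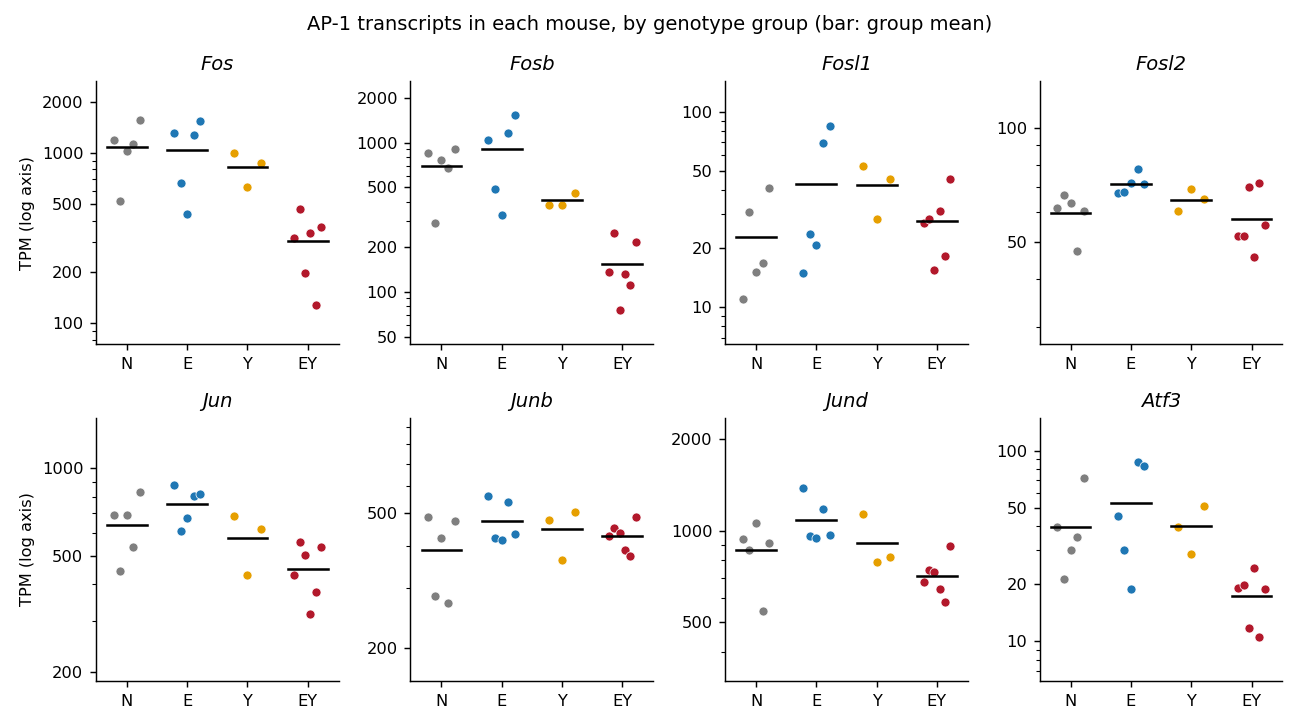
Each point is the TPM of a gene in 1 mouse on a log axis, by group, with 6 EY, 3 Y, 5 E and 5 N mice, and the bar is the group mean. Fos lay between 128 and 469 TPM in EY and between 525 and 1553 TPM in N, while Junb and Fosl2 overlapped between those groups.

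Fos, the prototype partner of Jun proteins, was at 1188, 525, 1025, 1128 and 1553 TPM in N1 to N5, at 1302, 663, 438, 1281 and 1538 TPM in E1 to E5, and at 994, 629.5 and 867 TPM in Y1 to Y3. In the 6 EY mice its lowest value was 128, its median 329 and its highest 469 TPM. Every EY mouse was below every N and every Y mouse, while E3 (438 TPM) fell below EY2 (469 TPM), and N2 and E3 were low within their own groups. On the scale of log2(TPM + 0.1), Fos fell by 1.87 in EY against N (SE 0.37, limma adjusted p = 0.000542), or 3.67-fold. With only the 3 N mice of 1 genotype it fell by 1.63, with a limma adjusted p of 0.00976, just under the threshold of 0.01. Against E it fell by 1.76 (SE 0.37, limma adjusted p = 0.00122). Leaving out any 1 of the 19 mice kept the log2 difference in EY against N between -2.11 and -1.65.

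Fosb, a close relative of Fos, was at 854, 291, 762, 674 and 902 TPM in N1 to N5, at 1041, 489.9, 326, 1161 and 1523 TPM in E1 to E5, and at 384, 384 and 458 TPM in Y1 to Y3. In EY epithelia it ranged from 75.5 through a median of 133 to 249 TPM. All 6 EY values were below all values of each of the other groups, and N2 and E3 were again the low mice of N and E. Fosb fell by 2.20 on the log2 scale in EY against N (SE 0.40, limma adjusted p = 0.000235), which is 4.59-fold, with -2.49 to -2.02 when any 1 mouse was left out. Against E it fell by 2.47 (SE 0.40, limma adjusted p = 0.000105), which is 5.53-fold. Y mice lay at the lower end of the N range, and the difference between Y and N was -0.67 (SE 0.48, limma adjusted p = 0.393).

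Atf3, a stress-induced factor that often represses transcription, was at 39.7, 21.2, 30.1, 35.1 and 71.5 TPM in N1 to N5, at 45.5, 30.1, 18.7, 87.6 and 83.5 TPM in E1 to E5, and at 39.6, 28.8 and 51.5 TPM in Y1 to Y3. The EY mice ranged from 10.5 through 18.9 to 24.1 TPM. They lay below all Y mice, but EY4 (24.1 TPM) was above N2, and E3 was within the EY range. In EY against N the log2 difference of -1.13 (SE 0.38, limma adjusted p = 0.0248) did not pass the threshold of 0.01. It did after median-of-ratios scaling (-1.51, limma adjusted p = 0.00591). Atf3 was also called there after quantile normalization, with voom on recovered reads and at an adjusted p below 0.05. Against E, Atf3 fell by 1.44 (SE 0.38, limma adjusted p = 0.00676). That p was near the threshold, and the call was lost without E1, E4, E5, EY1, EY2, EY3, EY5 or EY6, each left out alone (-1.49 to -1.20, limma adjusted p from 0.0101 to 0.0237), and in a fit of the EY and E mice only (0.0172).

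The remaining Fos genes did not pass the test in any comparison. Fosl1, or Fra-1, which accumulates in invasive carcinoma cells, ranged from 11.0 to 40.7 TPM in N, from 14.9 to 84.6 in E, from 28.2 to 52.8 in Y and from 15.6 to 45.3 in EY epithelia. Its values spread within groups, with E4 and E5 (69.7 and 84.6 TPM) far above the other 3 E mice, and its log2 difference in EY against N was 0.35 (SE 0.45, limma adjusted p = 0.58) and -0.03 after scaling. Fosl2, or Fra-2, was the steadiest member, with means of 59.9 ± 7.28 TPM in N, 71.3 ± 4.23 in E, 64.8 ± 4.30 in Y, with 57.7 ± 10.5 in EY epithelia. All 5 E mice (67.5 to 78.1 TPM) were above all 5 N mice for Fosl2, which was the only member with separate groups in that comparison and had a log2 difference of 0.26 (SE 0.12, limma adjusted p = 0.309). Over all genes tested, every E mouse was above every N mouse in 3.93%, and 1 of 8 members is not read as a result about the family.

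Of the Jun genes, Jun ranged from 444 to 831 TPM in N, from 611 to 877 in E, from 430.2 to 684 in Y and from 317 to 557 TPM in EY. Jund ranged from 546 to 1057 TPM in N, from 949 to 1381 in E, from 789 to 1132 in Y and from 581 to 893 in EY. For both genes every EY mouse was below every E mouse, while EY and N overlapped, N4 being the lowest N mouse for Jund. In EY against E, Jun had a log2 difference of -0.75 (SE 0.18, limma adjusted p = 0.00349) and Jund one of -0.61 (SE 0.17, limma adjusted p = 0.00851), both under the required log2 change of 1. After median-of-ratios scaling Jun was called at -1.02 (limma adjusted p = 0.000508). Junb, which can restrain the activity of Jun, had means of 388 ± 103 TPM in N, 475 ± 69.7 in E, 448 ± 74.7 in Y, with 428 ± 41.5 in EY, and overlapped in every comparison. Its log2 difference in EY against N was 0.18 (SE 0.16, limma adjusted p = 0.394) and turned to -0.20 after scaling.

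Calls needed an adjusted p (Benjamini and Hochberg, over the 22745 genes tested) below 0.01 together with a log2 fold change beyond 1 in either direction. All 8 members passed the filter, which asked for 0.1 TPM or more in 3 or more mice. In EY against N, 2 of 8 members were called, Fos and Fosb, both lower, beside 18.3% of all genes. That count is near the background and says nothing about the family as a group. All 6 EY mice were below all 5 N mice for the same pair of genes, beside 6.49% of all genes. In EY against E, 3 of 8 members were called, Fos, Fosb and Atf3, beside 12.8% of all genes, and Fosb, Jun and Jund had every EY mouse below every E mouse, beside 6.53% of all genes. The members had a median log2 difference of -0.37 in EY against N and -0.68 in EY against E, while all genes tested had medians of 0.33 and 0.26.

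In EY against Y, limma called 0 of 8 members, beside 2.00% of all genes, with 3 members at an unadjusted p below 0.05, while voom on recovered reads also called 0, with 6 below 0.05. Of all genes, 23.9% were below 0.05 by limma and 21.5% by voom. Fos had a log2 difference of -1.55 (SE 0.44, limma adjusted p = 0.0345), Fosb of -1.53 (SE 0.47, adjusted p = 0.0511) and Atf3 of -1.23 (SE 0.45, adjusted p = 0.103). These 3 genes had every EY mouse below every Y mouse, beside 3.37% of all genes, and with 3 Y mice the estimates were less precise than against N or E. In Y against N limma called 0 members, beside 4.58% of all genes, with 0 at an unadjusted p below 0.05 by limma and by voom (28.9% and 26.7% of all genes). In E against N limma called 0, beside 1.20% of all genes, with 1 below 0.05 (Fosl2), and voom called 0 with 0 below 0.05 (14.8% and 14.6% of all genes). In Y against E limma called 0, beside 2.48% of all genes, with 0 below 0.05, and voom called 0 with 2 below 0.05 (23.3% of all genes by either). EY, Y and E were compared with the same N mice, so these comparisons are not independent of each other.

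**Figure D2:**
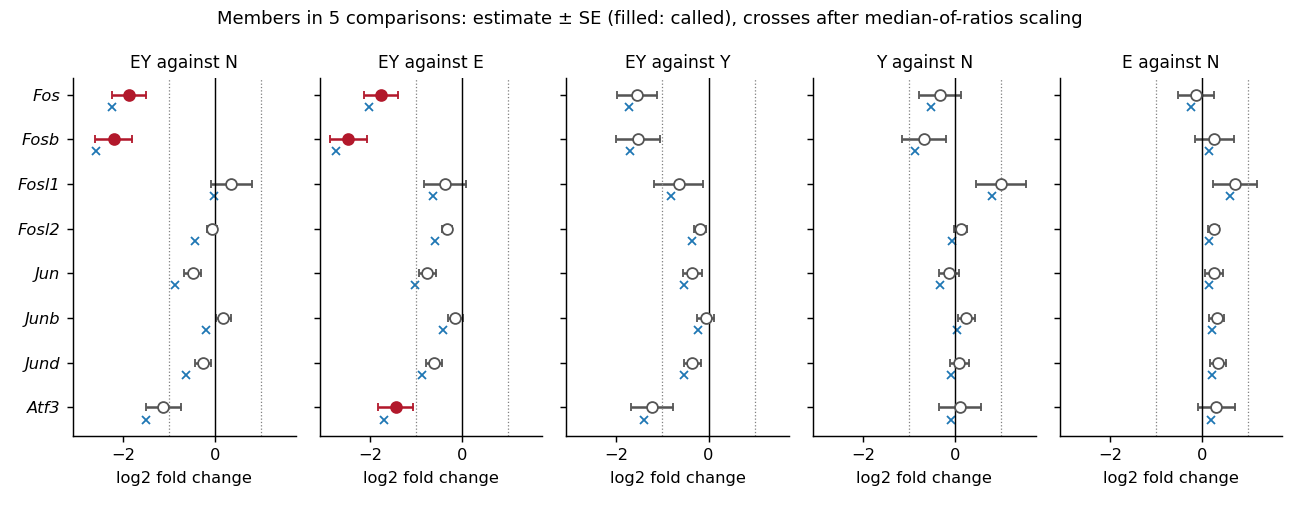
Circles give the log2 fold change of each member with its SE in 5 comparisons, filled where called, crosses give it after median-of-ratios scaling, and dotted lines mark a log2 change of 1. Fos and Fosb are called against N and E, Atf3 against E only, and after scaling the EY estimates against N for Fosl1 (-0.03) and Junb (-0.20) lie below 0, as do those of Fosl2, Jund and Atf3 in Y against N (-0.08, -0.10 and -0.10).

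A call in EY that is missing in Y or E does not show that the effects differ. The interaction EY - E - Y + N, which asks whether both transgenes together did more or less than the sum of each alone on the log2 scale, was below 0 for all 8 members. It was -1.80 for Fosb (SE 0.63, limma adjusted p = 0.207), -1.54 for Atf3 (SE 0.60, 0.265), -1.43 for Fos (SE 0.58, 0.286) and closest to 0 for Junb (-0.38, SE 0.25, 0.528). Limma called 0 of 8 interactions, beside 0.176% of all genes, with 6 at an unadjusted p below 0.05, and voom called 0 with 7 below 0.05. Of the 22745 genes tested, 3072 were below 0.05 by limma and 3193 by voom. The median interaction was -1.03 over the members and 0.08 over all genes tested. Marker lists of other cell types had interaction medians of 3.20 for muscle (8 of 8 genes above 0), 2.38 for fibroblasts (7 of 7), 1.67 for granulocytes (9 of 9), 1.14 for leukocytes and macrophages (9 of 9), 0.47 for T cells (4 of 6) and -0.27 for the epithelium (3 of 9), with 4 of 4 endothelial genes above 0, and limma called 0 of them too. Their part in the interactions of the members was not tested.

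TPM are shares of a library, and the scale moved the centre of all genes. Median-of-ratios scaling took the median log2 difference of all genes in EY against N from 0.33 to 0.01, in EY against E from 0.26 to 0.04 and in EY against Y from 0.18 to 0.02. The split of all called genes moved from 2858 higher and 1299 lower to 1540 and 1972 in EY against N, from 1779 and 1135 to 1000 and 1572 in EY against E, from 243 and 211 to 123 and 283 in EY against Y, and from 790 and 252 to 524 and 392 in Y against N. Under that scaling Fos was at -2.25, Fosb at -2.58 and Atf3 at -1.51 in EY against N, Jun at -0.87, Jund at -0.64 and Fosl2 at -0.44. All 8 members were thus below 0 after scaling, 3 of them called, and 6 of 8 were below 0 before. In Y against N, scaling turned Fosl2 from 0.12 to -0.08, Jund from 0.09 to -0.10 and Atf3 from 0.10 to -0.10, while the median of all genes went from 0.13 to -0.03. In EY against Y no member changed sign.

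Summed over the 8 members, AP-1 transcripts came to 3794 ± 908 TPM in N, 4436 ± 1241 in E, 3324 ± 558 in Y, with 2152 ± 372 in EY epithelia. The 4 Fos genes summed to means of 1863, 2066, 1346 and 542 TPM in the same order, and every EY mouse (329 to 798 TPM) lay below every mouse of the other groups. The 3 Jun genes summed to 1891, 2316, 1938 and 1593 TPM, and there EY (1330.2 to 1915 TPM) overlapped N (1356 to 2216 TPM) and Y but not E. The Fos genes therefore made up 48.3 ± 8.0% of the pool in N, 44.3 ± 11.1% in E, 40.6 ± 1.47% in Y, with 24.7 ± 5.16% in EY. In EY mice this share ran from 17.6 to 31.0%, below all N mice (36.1 to 57.3%) and all Y mice (39.0 to 41.9%), and E3 (29.4%) was the only E mouse within the EY range. Junb, with no called difference in level, made up 10.2 ± 1.25% of the pool in N and 20.1 ± 1.76% in EY. These sums and shares are descriptions and carry no test. A share does not depend on library scaling, but it moves when any member moves.

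**Figure D3:**
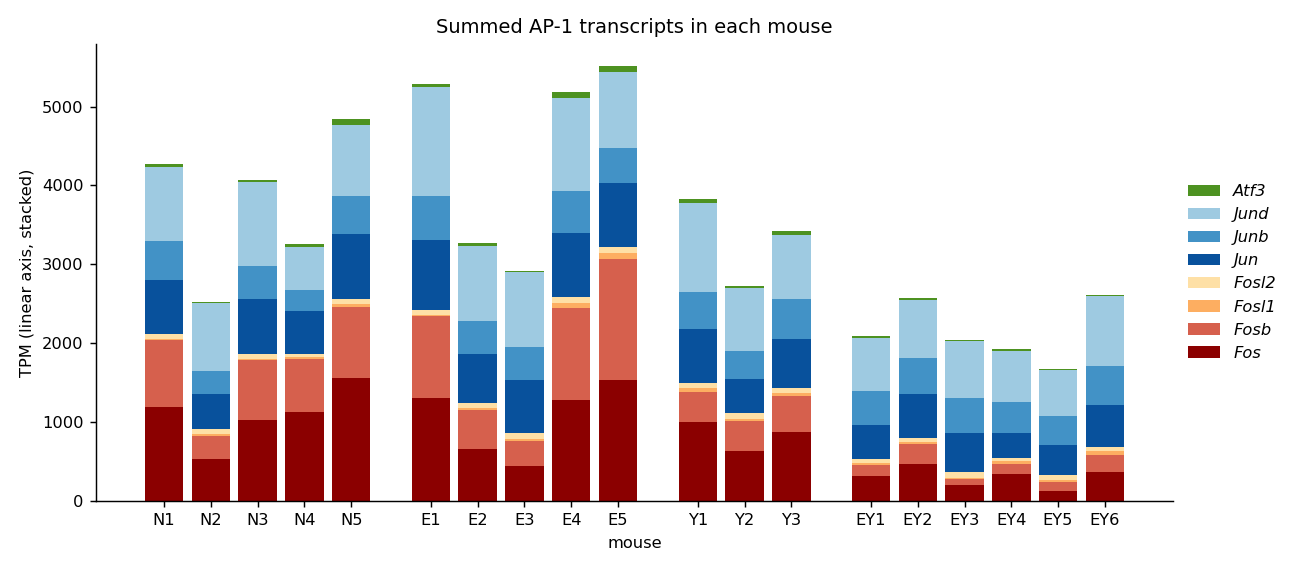
Stacked bars show the TPM of the 8 members in each mouse on a linear axis from 0, with Fos genes in reds, Jun genes in blues and Atf3 in green. The EY bars sum to between 1669 and 2616 TPM, and their summed Fos genes (329 to 798 TPM) lie below those of every N, E and Y mouse.

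Members differed in how much they varied within a group. After subtraction of the group means, the SD of log2(TPM + 0.1) was 0.65 for Fos, 0.70 for Fosb, 0.67 for Atf3 and 0.79 for Fosl1. At least 86.7% of the 6217 genes with a mean of 10 TPM or more varied less than these 4. Jun (0.31), Junb (0.27) and Jund (0.28) were near the median of those genes, 0.27, and Fosl2 (0.19) varied less than most, with 18.1% of genes below it. The 3 members called in EY against E were thus among the most variable within groups, and Fosl1, which varied most, was not called.

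Fos, Fosb and Atf3 deviated together. Across the 19 mice with group means subtracted, Fos and Fosb had a Pearson r of 0.89 (Spearman rho 0.86, r 0.92 without the 2 mice farthest from the median of Fos, E3 and EY5). Fos and Atf3 had r = 0.88 (rho 0.85, 0.84 without the same mice), and Fosb and Atf3 had r = 0.82 (rho 0.76, 0.72 without N2 and E3). N2 and E3 were low for all 3 genes and N5, E4 and E5 were high. Among EY mice, EY3 and EY5 were low for all 3, EY2 and EY6 were highest for Fos and Fosb, and EY4 was highest for Atf3. Among the Jun genes r was 0.82 for Jun and Junb (rho 0.75, 0.81 without N2 and EY4), 0.75 for Junb and Jund (rho 0.81, 0.76 without N2 and N4) and 0.62 for Jun and Jund (rho 0.70, 0.73 without N2 and EY4). Pairs across the families reached the last of these, with r = 0.63 for Fos and Jun (rho 0.62, 0.64 without E3 and EY5) and r = 0.65 for Fosl1 and Atf3 (rho 0.63, 0.66 without E1 and E5). Fosl2 went the other way from Fos, with r = -0.52 (rho -0.46, -0.44 without E3 and EY5). These are 9 of 28 pairs of members, and the points of a pair share a library and its scale, so the values describe these mice and have no p.

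Correlations with 5 reference genes were computed for Fos, Fosb, Atf3 and Fosl1. With Egr1, r was 0.83 for Fosb (0.73 without N2 and E3) and 0.54 for Atf3 (0.48 without N5 and E3). For Fosl1 it was 0.13 (0.20 without E1 and E5). With Ier2 and Dusp1, Pearson r was lower for these 3 members than for Fos, but rho was not lower for Fosb (0.72 and 0.81). Fos had r = 0.78 with Egr1, a zinc finger factor of the serum response (rho 0.72, 0.73 without E3 and EY5). With Ier2 it had r = 0.79 (rho 0.71, 0.77 without them), and with Dusp1, a phosphatase that switches MAP kinases off, r = 0.84 (rho 0.80, 0.73 without them). The only heat shock genes among these references were the inducible Hspa1a and Hspa1b. Hspa1a had r = 0.06 with Fos (rho 0.16, -0.08 without E3 and EY5) and Hspa1b had r = -0.13 (rho -0.03, -0.17 without them). The lowest mouse for Hspa1a was above its group mean for Fos in N (N4, 50.4 TPM of Hspa1a) and EY (EY4, 61.9 TPM), and was also the lowest for Fos in E (E3, 62.9 TPM) and Y (Y2, 74.1 TPM). Not every immediate early gene went with Fos by mouse, since within EY Egr2 was highest in EY3 (4.08 TPM) and lowest in EY6 (0.441 TPM).

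**Figure D4:**
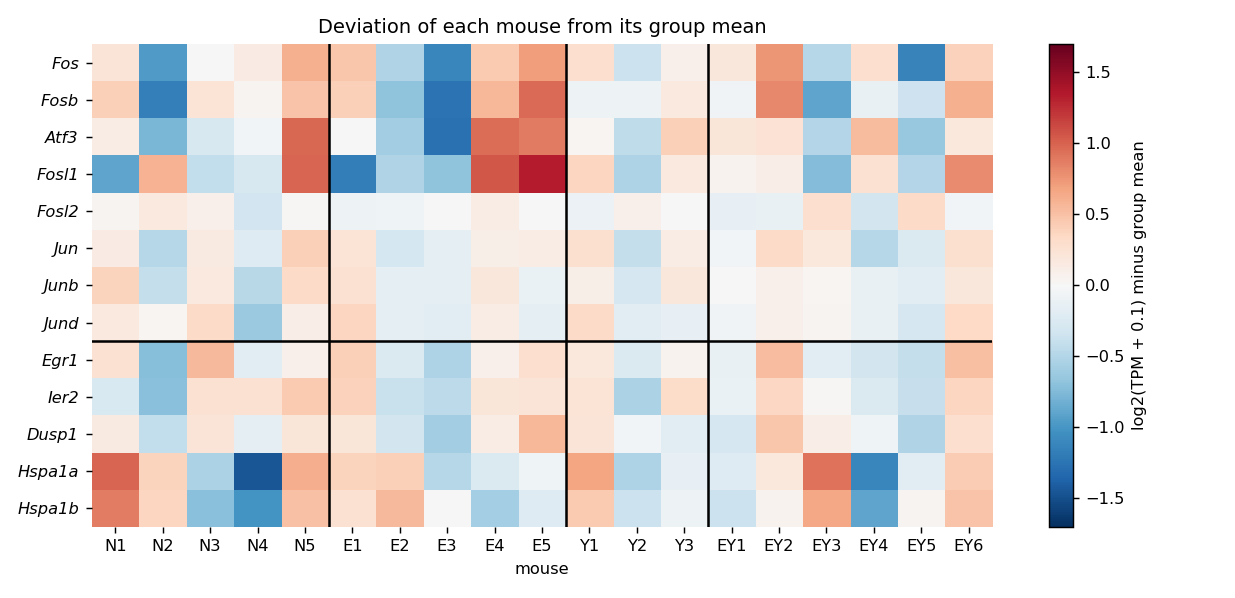
Colour gives log2(TPM + 0.1) of each mouse minus the mean of its group, with members above the horizontal line and reference genes under it, and vertical lines between groups. Fos, Fosb and Atf3 share their low mice N2 and E3 (Fos -0.96 and -1.11) and their high mice N5 and E5, and Hspa1a is low in E3 (-0.48) and high in N5 (0.62) but also high in N2 (0.38).

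In the search for the genes most like each member, the members themselves were left out. Fos had a higher r with Fosb (0.89) and Atf3 (0.88) than with any gene this search returned. Fos was also closer to Fosb than Zfp36 was, and closer to Atf3 than Socs3 was. Over 15596 genes with a mean of at least 1 TPM, the genes most like each member across the 19 mice, group means subtracted, were ranked by Pearson r. For Fos they were Zfp36 (r = 0.87, rho 0.84), Nr4a1 (0.86, rho 0.82) and Gm12778 (0.85, rho 0.69), and for Fosb Zfp36 (0.88, rho 0.87), Nr4a1 (0.87, rho 0.89) and Egr1 (0.83, rho 0.85). For Atf3 they were Btg2 (0.96, rho 0.93), the heat shock gene Dnajb1 (0.91, rho 0.85) and Socs3 (0.86, rho 0.83). Without 2 mice at the ends these 9 values were 0.70 to 0.94. The nearest gene of 3 members lay beside them on the chromosome. Ccdc85b overlaps Fosl1 (r = 0.98, rho 0.96, 0.97 without 2 mice) and Gm11175 overlaps Jund (r = 0.95, rho 0.90, 0.94), and reads of overlapping genes cannot be told apart unless they are counted by strand, so the levels of Fosl1 and Jund carry that uncertainty. Junos is an antisense neighbour of Jun (r = 0.92, rho 0.91, 0.87), where reads from the opposite strand raise the same question. For Fosl2 the nearest was Igip (r = 0.93, rho 0.89, 0.91) and for Junb Acbd6 (0.84, rho 0.83, 0.77).

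Relatives and partners of AP-1 were read from lists of genes. Of 19 other bZIP factors, 2 were higher and 2 lower in EY against N (2 and 3 after scaling), a share near the 18.3% of all genes called, with a median log2 difference of 0.40 beside 0.33 for all genes. Maf, a bZIP factor that binds extended AP-1 sites, had means of 35.5 ± 9.12 TPM in N, 30.6 ± 6.01 in E, 13.3 ± 2.60 in Y, with 6.25 ± 2.94 in EY, and fell by 2.59 (SE 0.28, limma adjusted p = 9.29e-07). Jdp2, a Jun dimerization protein that represses AP-1 sites, rose by 1.87 (SE 0.43, adjusted p = 0.00181), and Batf, which pairs with Jun proteins, by 1.47 (SE 0.34, adjusted p = 0.00217). Both calls were lost with only the 3 N mice of 1 genotype (adjusted p = 0.0178 and 0.0174) and, at low levels, with a pseudocount of 1 TPM (0.70 and 0.27). Bach2, a repressor, was at -1.02 (SE 0.17, adjusted p = 0.000134) and lost its call without N1, N2, EY2, EY4 or EY6 (down to -0.96), with a pseudocount of 1 TPM (-0.20) and with mouse number as a block (-0.99).

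Of 23 other immediate early genes, 2 were higher and 7 lower in EY against N, and 1 and 10 after scaling, with 11 above 0 and 12 below and a median log2 difference of -0.64 (-1.02 scaled). Of all 22745 genes, 18.3% were called, 2858 higher and 1299 lower, and 1540 and 1972 after scaling. Egr1 was at 561, 284, 688, 415 and 496 TPM in N1 to N5 and at 116 to 220.4 TPM with a median of 139 in EY, where it fell by 1.60 (SE 0.23, limma adjusted p = 2.58e-05). Nr4a1, an orphan nuclear receptor, fell by 2.19 (SE 0.37, limma adjusted p = 0.00013), from 68.7 ± 21.5 TPM in N to 15.6 ± 7.44 TPM in EY. Egr3 fell by 3.47 (SE 0.43, limma adjusted p = 4.22e-06), from 40.9 ± 26.7 to 3.17 ± 1.26 TPM. For these 3 genes all 6 EY mice were below all 5 N mice, as for 6.49% of all genes. Btg2, an antiproliferative gene, fell by 1.82 (SE 0.37, limma adjusted p = 0.000655), a call lost with only the 3 N mice of 1 genotype (-1.53, 0.0106), as was that of Egr2 (-2.22, against -1.66 with 0.0429). Egr4 was listed at 0 in 5 of 6 EY mice, and its call at -3.68 was lost without N4 (-2.98, limma adjusted p = 0.0161) or N5 (-3.37, 0.0149), with the 3 N mice alone (-2.33, 0.0719) and with a pseudocount of 1 TPM (-1.52, 0.0401). Ier2 was not called at -0.93 (SE 0.23, limma adjusted p = 0.00362), but was called without N2 (-1.10, 0.000709), after scaling (-1.30, 0.000461) and with voom (-1.29, 9.73e-05). Dusp1 was not called either (-0.43, SE 0.20, limma adjusted p = 0.103).

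Of 25 MAP kinase and serum response factor genes upstream of AP-1, 2 were called in EY against N, beside 18.3% of all genes, and whether the list differs from that share was not tested. In it 1 was higher, Elk3 (1.64, SE 0.31, limma adjusted p = 0.000352), and 1 lower, Map2k6 (-1.21, SE 0.22, adjusted p = 0.000228), with 1 and 2 after scaling and a median of 0.18 that turned to -0.18. Elk3 is a cofactor of serum response factor and Map2k6 activates p38, and both were below the fold limit with a pseudocount of 1 TPM (0.99 and -0.28). Of 15 MAP kinase phosphatase and Sprouty genes, which damp the same cascade, 2 were higher and 1 lower, and 1 and 3 after scaling, which took the median from 0.28 to -0.09. Dusp4 rose by 2.35 (SE 0.48, limma adjusted p = 0.000749), or 0.75 and not called with a pseudocount of 1 TPM. Dusp10 was at 1.42 (adjusted p = 0.00333) and lost its call without N4 (adjusted p = 0.0125), after scaling (1.17, 0.0126), with voom (1.61, 0.0178), with the 3 N mice of 1 genotype (1.18, 0.0311), in a fit of EY and N only (0.0108) and with a pseudocount of 1 TPM (0.46). Spry1 was at -1.11 (adjusted p = 0.0048) and lost its call without N3, N4, N5, EY1 or EY4 (-1.06 to -0.97) and with the 3 N mice of 1 genotype (-0.88, 0.0578).

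Of 24 AP-1 target genes of growth and invasion, 8 were higher and 0 lower in EY against N, and 7 and 2 after scaling, beside 18.3% of all genes called, with a median log2 difference of 0.69 (0.32 scaled). Ptgs2, which makes prostaglandins, was at 20.3 ± 16.4 TPM in N and 187 ± 68.8 TPM in EY and rose by 3.36 (SE 0.52, limma adjusted p = 4.56e-05). Plaur, the urokinase receptor, rose by 4.07 (SE 0.42, adjusted p = 5.08e-07), from 0.931 ± 0.635 to 16.3 ± 8.09 TPM. Cxcl1, a neutrophil attractant, rose by 5.19 (SE 0.77, adjusted p = 3.2e-05), the collagenase gene Mmp13 by 4.46 (SE 0.59, adjusted p = 9.26e-06) and the cytokine gene Lif by 2.61 (SE 0.49, adjusted p = 0.00032). All 6 EY mice were above all 5 N mice for these 5 genes, the largest calls of the list, as they were for 20.9% of all genes. Within EY, Cxcl1, Plaur and Ptgs2 were lowest in EY3 and EY5, which were also the mice with the lowest Fos, while Mmp13 was highest in EY3 (8.98 TPM) and Lif was lowest in EY6 (2.02 TPM).

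Of 12 cornification genes listed as responsive to AP-1, 1 was higher and 7 lower in EY against N on either scale. This stood beside 18.3% of all genes called, and the list had a median of -2.12 (-2.50 scaled). Krt10, a keratin of suprabasal cells, fell by 5.73 (SE 0.37, limma adjusted p = 3.12e-09), from 751 ± 294 TPM in N and 138 ± 18.8 in Y to 15.3 ± 7.59 in EY. Lor, the main cornified envelope protein, fell by 3.71 (SE 0.41, adjusted p = 1.28e-06), Krt1 to a log2 difference of -3.61 (SE 0.49, adjusted p = 1.25e-05) and Flg by 3.18 (SE 0.39, adjusted p = 3.47e-06). Sprr2d, a small proline-rich envelope protein induced in wounds, rose by 5.70 (SE 0.96, adjusted p = 0.000114). In bulk tissue, fewer cells of a type and less RNA per cell cannot be told apart, for these genes and for Fos, Fosb and Atf3 alike.

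Of 12 YAP and TEAD genes, 7 were higher and 0 lower (6 and 0 scaled), beside 18.3% of all genes called, 2858 higher and 1299 lower (1540 and 1972 scaled), with a median of 1.51. Amotl2 rose by 2.06 (SE 0.16, limma adjusted p = 1.65e-08), Axl by 2.26 (SE 0.24, adjusted p = 7.88e-07), Ccn1 by 1.84 (SE 0.28, adjusted p = 3.49e-05) and Tead1 by 1.66 (SE 0.19, adjusted p = 1.67e-06). Ccn2 was called at 1.97 (SE 0.53, adjusted p = 0.00573) but not after scaling (adjusted p = 0.0177), after quantile normalization (1.59, 0.0176), with the 3 N mice of 1 genotype (1.03, 0.0895), in a fit of EY and N only (0.0206) or without N1, N4, N5, EY1, EY3, EY4 or EY5 (adjusted p from 0.0104 to 0.0205). Ccn1 and Ccn2 are also induced by serum, and the part of a serum response in these changes was not tested. The mouse gene Yap1 differed by 0.12 (SE 0.11, limma adjusted p = 0.424), and by -0.25 after scaling. Transcripts of the YAP1S127A transgene were not analysed here, so this row does not give the total YAP level. The paper reports the transgene as raised in Y and EY epithelia. Of 12 heat shock genes, 4 were higher and 0 lower, and 3 and 1 after scaling, beside the same share of all genes, led by Hsp90aa1 at 2.58 (SE 0.17, adjusted p = 4.08e-09), while Hspa1a and Hspa1b were both at -0.04 (SE 0.41 and 0.34).

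**Figure D5:**
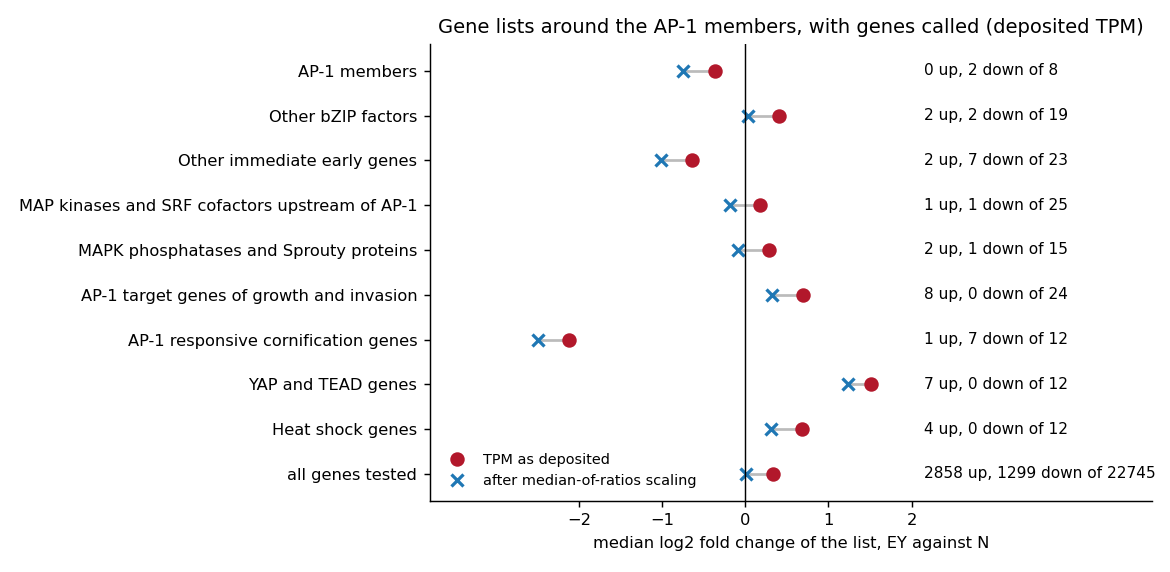
Each line is a gene list, with its median log2 fold change in EY against N in TPM as deposited (circle) and after median-of-ratios scaling (cross), and the genes called in each direction of those tested. The AP-1 members (-0.37), other immediate early genes (-0.64) and cornification genes (-2.12) lie below 0 on both scales, and the YAP and TEAD list (1.51) and AP-1 targets of growth and invasion (0.69) above 0, while scaling turns the kinase list from 0.18 to -0.18 and the phosphatase list from 0.28 to -0.09.

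Markers of cell types also differed between EY and N. The 9 epithelial markers were all tested. Beside 18.3% of all genes called, 3 of these 9 markers were higher and 2 lower in EY against N (2 and 2 scaled). Their sum was 111257 ± 24340 TPM in N, 100282 ± 20387 in E, 82498 ± 24440.3 in Y, with 54812 ± 5586 in EY, and Krt13 made up 63.9% of it in N, 64.3% in E, 51.2% in Y, against 38.1% in EY. Krt13, a keratin of suprabasal tongue epithelium, fell by 1.75 (limma adjusted p = 6.15e-05), while basal Krt14 rose by 1.43 (adjusted p = 0.000402). Every EY mouse (45784 to 62626 TPM) was below every N mouse (73156 to 140524 TPM) in that sum. The epithelial markers were detected in every mouse, so the tissue label holds.

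Of 9 granulocyte markers, 3 were higher in EY against N, beside 18.3% of all genes called. The sum of the 9 went from 7.87 ± 6.08 TPM in N to 57.8 ± 46.2 TPM in EY. Retnlg made up 5.4% of it in N and 68.8% in EY. Retnlg itself was not called (5.49, limma adjusted p = 0.0143), but was without EY6 (6.91, 0.000559) or Y2 (0.00707), with a pseudocount of 1 TPM (3.95), with mouse number as a block (0.00116) and at an adjusted p below 0.05. EY6 had a sum of 2.17 TPM, Ly6g was at 0 in it and in all N, E and Y mice, and 7 of the 9 were at 0 in some mouse. The call of Cd177 (2.09) was lost without N2, N3, N4, N5, EY1, EY2, EY3 or EY4 (limma adjusted p from 0.0129 to 0.0165), after quantile normalization, with voom, in a fit of EY and N only, with the 3 N mice of 1 genotype (0.0361, the highest of these) and with a pseudocount of 1 TPM (0.57, under the fold limit), and that of Ly6g (2.87) with a pseudocount of 1 TPM (0.87).

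Of 6 T cell markers all were above 0, with a median of 1.46 (1.19 scaled), and 1 was called, Cd3d, a call lost without N4 (limma adjusted p = 0.0101), with the 3 N mice of 1 genotype (0.0119), with mouse number as a block (0.0109) and with a pseudocount of 1 TPM (0.94), and their sum of 1.53 ± 0.863 TPM in N and 5.96 ± 1.26 TPM in EY was led by Cd8a, with 4 of the 6 at 0 in some mouse. Beside this count of calls and those that follow, 18.3% of all genes were called. The 9 leukocyte and macrophage markers had 0 calls by limma, with 8 of 9 above 0 and a median of 0.84 (0.47 scaled). Their sum, led by Lyz2, was 289 ± 299 TPM in N, where N1 reached 809.6 and the mean without it was 159, and 268 ± 70.3 TPM in EY. Of 7 fibroblast markers 1 was called, Dcn, which was lower and made up 42.6% of the sum in N and 15.8% in EY, while the other 6 were above 0 (list median 0.45), and the sum was 144 ± 101 TPM in N and 87.3 ± 53.1 TPM in EY. Of 5 endothelial markers 4 were tested, all but Tek, with 0 calls and sums of 0.583 ± 0.376 and 1.07 ± 1.10 TPM led by Pecam1. Of 8 muscle markers all were above 0, with a median of 1.79 (1.42 scaled), and 1 was called, Tnni2, a call lost without N1, N3 or N4 (limma adjusted p from 0.0112 to 0.0149), with scaling (0.0181), quantile normalization, voom, the block, the 3 N mice of 1 genotype or EY and N only (up to 0.0348), with sums of 105 ± 111 TPM in N, where N2 reached 300.5, and 412 ± 546 TPM in EY, where EY3 was highest, led by Acta1. Without those mice the muscle means were 56.5 TPM in N and 192 TPM in EY, and without EY3 the endothelial mean in EY was 0.636 TPM. Of the mice with the most muscle RNA in their group, N2, EY3 and Y2 were below the group mean for Fos, and E5 was the highest E mouse for Fos and Fosb. The part of these cell types in the levels of Fos, Fosb and Atf3 was not tested.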

How the data were processed

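Bulk RNAseq of tongue epithelium was measured in 19 mice, grouped by title and genotype into 5 N, 5 E, 3 Y and 6 EY. The authors aligned reads to GRCm39 with STAR 2.7.9, sorted them with SAMtools 1.7, counted them per gene with HTSeq 0.13.5, tested them with DESeq2 1.34.0 and deposited TPM for 24689 gene symbols, and how counts became TPM is not given in the sources used here. Whether counting used strand is not given there either.

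In 24680 of 24680 genes above 0, the TPM of a gene were whole multiples of 1 step within 0.01 reads, which gave the reads behind each value. Depth had medians of 9637779 (N), 8848776 (E), 8679053 (Y) and 9448942 (EY) reads, and at that depth the least read member had 162 reads in its lowest mouse. The 22745 genes reaching 0.1 TPM or more in 3 or more mice went into limma 3.58.1 under R 4.3.3 (functions lmFit, contrasts.fit and eBayes with trend) on log2(TPM + 0.1), in 1 model of 4 group means with 7 contrasts. A fold change on this scale understates the change of genes with low values. Summaries used Python 3.11.15, numpy 2.4.6, pandas 2.3.3, scipy 1.17.1 and matplotlib 3.10.9. The fit and the recovery of reads were tested on simulated data.

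The 8 members and 15 further gene lists were chosen with earlier results of these data known. Beside the members, the genes named were up to 5 of each list with the largest change among those called in EY against N, 8 reference genes, the most abundant marker of each cell type and the 3 genes most like each member. The fit was repeated with 1 or 0.01 TPM added before logs, with the expression filter at 1 TPM or at any value over 0, and with values scaled by median of ratios or quantile normalized. It was also repeated on fewer mice (the 3 N mice of 1 genotype, or the groups of a comparison alone, or all but 1 mouse), with a block for mouse number, with robust eBayes, and with voom on the recovered reads. Calls were recounted at an adjusted p under 0.05 and without the fold limit. Promoters came from RefSeq GRCm38.p6, and places of neighbouring genes from RefSeq and GENCODE vM21 annotation of GRCm38. The single cell, CUT&Tag, ATACseq and culture data were not analysed here, nor were transcripts of the transgenes.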

Additional observations from a re-analysis of the deposited data

How the results depend on the processing

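Fos and Fosb kept their calls in EY against N and EY against E under every alternative run and without any 1 mouse. Of 223 counts of members called, 221 stayed within 1.5 times the count reported, and the exceptions were 1 member in EY against Y at an adjusted p below 0.05 (Fos) and 5 in EY against E with no fold limit. That limit is coarse, since counts of 2 and 3 lie within it of each other. Atf3 gained a call in EY against N in 4 settings, and Jun gained one in EY against E in 3. In EY against E, Atf3 lost its call in 8 fits without 1 mouse and in 1 other setting. Of 1784 member log2 differences under an alternative, 31 changed sign, all of them not called. With median-of-ratios scaling, EY against N became -0.03 for Fosl1, -0.20 for Junb and -0.25 for Yap1, and Y against N became -0.08 for Fosl2, -0.10 for Jund and -0.10 for Atf3. With quantile normalization, EY against N became -0.06 for Fosl1 and -0.26 for Yap1, and Y against N -0.17 for Fosl2 and -0.18 for Atf3. With voom on recovered reads, EY against N became -0.01 for Fosl1, -0.19 for Junb and -0.25 for Yap1, and Y against N -0.08 for Fosl2, -0.11 for Jund and -0.10 for Atf3. With only the 3 N mice of 1 genotype, Jund was at -0.08 in Y against N and Fos at 0.13 in E against N. Leaving out 1 mouse at a time took Y against N from -0.28 to 0.06 for Jun, -0.07 to 0.19 for Jund and -0.11 to 0.34 for Atf3, E against N from -0.36 to 0.16 for Fos and -0.02 to 0.59 for Fosb, EY against Y from -0.20 to 0.04 for Junb, Y against E from -0.02 to 0.61 for Fosl1, -0.18 to 0.06 for Junb and -0.53 to 0.02 for Atf3, and EY against N from -0.41 to 0.21 for Hspa1a, -0.30 to 0.17 for Hspa1b and -0.55 to 0.23 for Lyz2. The cause was not tested. Deviations of the 24 same-numbered pairs of mice had r from -0.0426 to 0.0764, with a median of 0.0119 beside -0.00751 for other pairs. The highest r of differently numbered mice was 0.0769 (Y2 and EY5), and 6 of 19 mice matched their own number best. Whether mouse numbers pair the samples was not tested. With the replicate block, 2 members were called in EY against N and 3 in EY against E, as without it, and Atf3 in Y against E became 0.09. The background counts moved by over 1.5 times in several fits: in EY against Y, 454 calls became 200 without Y1, 255 without Y2, 262 without Y3, 198 with only the groups compared, 865 at an adjusted p below 0.05 and 803 with no fold limit, and the interaction went from 40 to 73 without EY3, 117 with voom and 148 at 0.05. In Y against N, 1042 became 639 without Y3, 656 with 3 N mice, 555 with only the groups compared, 1599 at 0.05 and 1935 with no fold limit, in Y against E 563 became 316 without Y2, 266 without Y3, 187, 1016 and 986 in the same way, in E against N 274 became 145 with only the groups compared and 414 at 0.05, and with no fold limit 4157 became 7248 in EY against N and 2914 became 5746 in EY against E. The 3 Y mice limit what comparisons with Y can show.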

Other observations

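Members were again left out of the ranking. Of the 24 genes most like the members with group means subtracted, 3 for each member, 10 were also among the 24 without subtraction. Without it, Fos was nearest to Btg2 (r = 0.94, rho 0.92, 0.93 without 2 mice), Nr4a1 (0.93, rho 0.91, 0.92) and the gap junction gene Gja1 (0.90, rho 0.87, 0.80). Fosb was nearest to Nr4a1 (0.95, rho 0.91, 0.97) and Egr1 (0.94, rho 0.91, 0.95), and Atf3 to Btg2 (0.96, rho 0.96, 0.94) and Dnajb1 (0.94, rho 0.92, 0.91). Jun was nearest to Junos (0.95) and Ier2 (0.90, rho 0.94, 0.87). Junb had r = 0.79 with Nkapl (rho 0.45), which rested on 2 mice, since r was 0.25 without them. All of these were ranked among 15596 genes over 19 mice that share group differences and libraries.

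The interaction of both transgenes was below 0 for 12 of 12 cornification genes, with a median of -1.16, and for 18 of 23 other immediate early genes, with a median of -0.31. It was above 0 for 21 of 24 AP-1 target genes of growth and invasion, with a median of 0.49, while the median of all genes tested was 0.08. Limma called 0 genes of these 3 lists in the interaction, beside 0.176% of all genes.

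Of 48 lowest and highest member values in the 24 groups of 5 or 6 mice, 0 passed the 95% limit of the Dixon test. It looks at 1 end value at a time, so it misses pairs such as E4 and E5 for Fosl1 (69.7 and 84.6 TPM), and the groups of 3 Y mice were not tested.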
